A study of Mus musculus with 8 samples.

Results

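The deposited ATAC-seq table of mouse gastrocnemius, a calf muscle, lists 489637 accessible regions, and 103000 of them lie in a later intron of a gene. A region counted as later-intron where the table's gene section read intron 2 or above and its chromosome was 1 to 19. No measured signal entered that choice. ATAC-seq uses a transposase to insert sequencing adapters into open DNA, so the signal of a region measures how accessible its chromatin was. The 8 libraries came from 6-month-old mice, 4 labelled Vehicle and 4 labelled iMSBmal1KO, with nuclei prepared from a pair of whole muscles each. All 8 mice carried the genotype Cre+:iMSBmal1 fl/fl, that is, Cre and floxed copies of Bmal1 were present in the controls too. The iMSBmal1KO mice had received tamoxifen and the controls vehicle, so tamoxifen and loss of Bmal1 cannot be told apart in this design. The labels used here do not name the promoter that drives Cre, and whole muscle holds fibre nuclei together with nuclei of other cells.

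Introns are transcribed and then removed from the RNA. Accessible chromatin inside them often marks enhancers, and in long genes it can mark start sites of other transcripts. Bmal1 (Arntl in the table) is a circadian clock gene whose product, a DNA-binding factor, pairs with CLOCK or with its paralogue NPAS2 and binds the E-box CACGTG. A change of accessibility is not a change of transcription, which was not measured here.

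The later-intron regions belonged to 9469 genes, with a median of 5 regions per gene. A single region was listed for 1887 genes, and 50 or more for 355 genes. The highest intron number was 261, in Ttn, which encodes the giant sarcomeric protein titin. Regions annotated to protein-coding genes made up 89.7%. The median region was 113 bp long and lay 49.0 kb from its annotated start, against 13.3 kb for first-intron regions. Neighbours were not independent, since 40.9% of the later-intron regions abutted another region.

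Few later-intron regions overlapped a RefSeq promoter window. The table gives regions at its annotated start sites a gene section of their own, so a low overlap was in part set by the annotation. The share below therefore does not measure how often later introns hold start sites. RefSeq promoter windows on GRCm38.p6, from 250 bases before a start to 50 after it, overlapped 180 of the 103000 regions (0.175%). These windows overlapped 60 of the regions that passed the filter on low signal, and in 7 of the 60 the window was that of the annotated gene itself. The 4 stretches below are the 250 bases before the start of a transcript whose window lies inside a strong later-intron region, chosen because they are intronic DNA for 1 gene and upstream DNA for another. They are written 5′ to 3′ on the strand of the embedded transcript, and capitals mark CACGTG.
Zfp652 intron 5, before Gm29933, chr11:95808605-95808854, minus strand: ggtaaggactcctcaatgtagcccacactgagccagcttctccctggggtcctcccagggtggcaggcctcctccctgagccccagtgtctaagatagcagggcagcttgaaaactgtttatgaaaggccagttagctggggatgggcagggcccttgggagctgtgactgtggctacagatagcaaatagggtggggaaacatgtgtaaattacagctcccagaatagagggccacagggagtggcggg
Eml6 intron 17, before Gm39671, chr11:29808634-29808883, plus strand: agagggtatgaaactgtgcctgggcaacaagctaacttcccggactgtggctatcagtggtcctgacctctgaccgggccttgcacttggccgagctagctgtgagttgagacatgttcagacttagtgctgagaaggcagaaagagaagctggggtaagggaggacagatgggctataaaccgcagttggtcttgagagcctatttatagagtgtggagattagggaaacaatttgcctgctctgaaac
Itpr1 intron 60, before Gm44040, chr6:108532910-108533159, minus strand: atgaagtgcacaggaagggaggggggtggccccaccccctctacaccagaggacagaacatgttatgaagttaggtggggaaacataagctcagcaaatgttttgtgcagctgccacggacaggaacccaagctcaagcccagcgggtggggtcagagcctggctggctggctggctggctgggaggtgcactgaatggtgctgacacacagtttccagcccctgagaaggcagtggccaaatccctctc
Nfia intron 2, before Gm19417, chr4:97869010-97869259, minus strand: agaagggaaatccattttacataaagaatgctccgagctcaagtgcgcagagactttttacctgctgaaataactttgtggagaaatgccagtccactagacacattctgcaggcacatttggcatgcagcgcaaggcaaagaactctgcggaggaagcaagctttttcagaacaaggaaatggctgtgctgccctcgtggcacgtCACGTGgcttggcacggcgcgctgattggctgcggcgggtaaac

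The Zfp652 region held a signal of 980, 877, 730 and 528 in vehicle and 709, 619, 626 and 857 in iMSBmal1KO, and the groups overlapped. The Eml6 region held 880, 626, 636 and 378 in vehicle and 653, 843, 713 and 838 in iMSBmal1KO, again with overlapping groups. The Itpr1 region, in a gene for a calcium release channel, held 837, 690, 719 and 600 in vehicle against 485, 640, 501 and 523 in iMSBmal1KO. A single iMSBmal1KO library, replicate 2, exceeded the lowest vehicle library there. The Nfia region, in a gene for a nuclear factor I transcription factor, held 374, 403, 252 and 250 in vehicle and 361, 438, 308 and 409 in iMSBmal1KO. Its groups overlapped, with a log2 change of 0.27 ± 0.21 (SE, adjusted p in limma = 0.679). The 60 tested regions touched 62 windows, of which 2 held CACGTG (3.23%), a palindrome that reads the same on both strands, against 7.15% of all 32851 windows. None of the 60 passed the adjusted threshold, with 0.502 as the lowest limma adjusted p and 8 at an unadjusted p under 0.05. Over all tested regions 0.0881% passed, and 9.22% had an unadjusted p under 0.05 in limma. The difference from these shares was not tested.

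Depth in the listed regions ran from 4.31 M read equivalents in vehicle replicate 4 to 29.5 M in iMSBmal1KO replicate 1 (M, units of 1e+06), with 11.2 to 19.7 M in the other 6. Vehicle replicate 4 listed 24.9% of all regions at 0, against 2.36% to 11.8% in the others, so single low regions are least precise there. Signal within 1 kb of the start sites of 10 fibre markers was 734 to 1248 per kb in vehicle and 939 to 1157 in iMSBmal1KO. The 4 leukocyte markers gave 8.78 to 20.96 per kb in vehicle and 14.4 to 35.2 in iMSBmal1KO. Among those 4, no start-site region of Adgre1 or Cd68 was listed, and 1 gene was above 0 in every library. Satellite cell, fibro-adipogenic, endothelial, smooth muscle and Schwann cell markers lay between 44.0 and 317 per kb. The part of these cell types in the results below was not tested, and in bulk muscle a lower share of a cell type and a lower signal per nucleus cannot be told apart.

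Later-intron regions had a lower median signal than start-site regions at every intron number. The filter on low signal, at least 0.762 read equivalents per M in at least 4 libraries and 15 reads in all, was passed by 23167 later-intron regions. That was 22.5%, against 24.9% of first-intron regions, 18.1% of intergenic regions and 44.2% of regions at start sites. The share that passed went from 23.9% in intron 2 to 22.5%, 21.9% and 21.7% in introns 3, 4 and 5, and to 20.6% in introns 21 and above. Among those tested, the median signal per 100 bp was 13.9 in intron 2, 14.2 in intron 3, 13.4 in intron 4 and 13.2 in intron 5. It was 13.0 in introns 6 to 10, 13.7 in introns 11 to 20 and 11.97 in introns 21 and above. First-intron regions had 14.3, intergenic regions 13.8 and start-site regions 23.6. Over all listed regions, tested or not, the medians were 4.07 in later introns, 4.56 in first introns, 3.24 between genes and 8.002 at start sites. Later introns thus lay above intergenic regions over the whole listing and slightly below them among the tested regions, where the filter acts on the same signal. By intron number, the medians over all listed regions went from 4.25 in intron 2 to 4.08 in intron 3 and 3.86 in introns 21 and above.

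**Figure D1:**
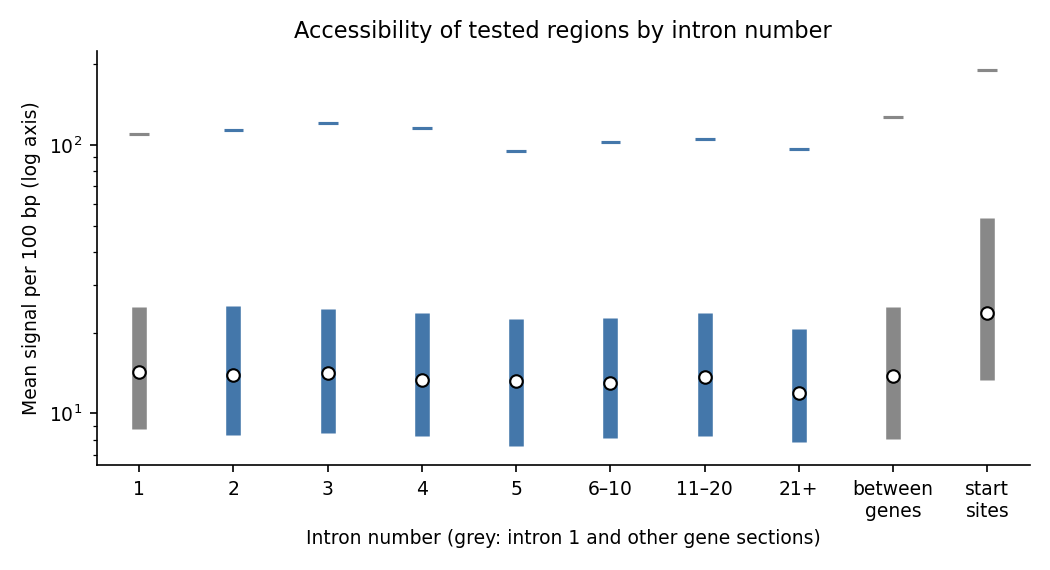
Mean signal per 100 bp over the 8 libraries (log axis) of the tested regions, by intron number and for 3 other gene sections in grey. Circles are medians, bars the span between the quartiles and dashes the 99th percentile; medians run from 14.2 in intron 3 to 11.97 in introns 21 and above, against 23.6 at start sites.

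Intron number and distance from the start move together, and the median tested region lay 25.2 kb from its start in intron 2 and 117 kb in introns 21 and above. At 1 to 10 kb from a start, the medians per 100 bp were 15.4 in first introns, 15.1 in intron 2 and 14.8 in introns 3 and above. At 10 to 50 kb they were 13.6, 13.8 and 13.6 in the same order. At 100 to 500 kb they were 11.995, 13.4 and 12.9, over 681, 954 and 4283 regions. At matched distance later introns therefore lay -0.606 to 1.44 units from first introns. These are descriptions over regions, which are not replicates, and no test was made.

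A small number of regions held much of the later-intron signal. The 1000 strongest carried 34.9% of it, and the single strongest, in intron 4 of Chl1, 3.79%. Chl1 encodes a neural cell adhesion molecule. Its region (chromosome 6, 103649049 to 103649452, 404 bp) held a signal of 67950, 52302, 39353 and 68615 in vehicle and 37217, 44813, 94951 and 61323 in iMSBmal1KO. The groups overlapped throughout, at 57055 ± 14004 and 59576 ± 25640 (SD, n = 4 each), which was 0.00 ± 0.30 on the log2 scale (SE, adjusted p in limma = 0.997). Its share of all later-intron signal ran from 2.49% to 6.02% between libraries.

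The 8 strongest regions, 1 per gene, lay in Chl1, Gm49936, Cdk8, Jarid2, Nctc1, Flt1, Gm36264 and Camk1d. Cdk8 encodes a kinase of the Mediator complex, Jarid2 a Polycomb cofactor, and Flt1 a receptor for vascular endothelial growth factor. Nctc1 is a noncoding transcript of the H19 and Igf2 region. Their signal per 100 bp ran from 227 to 14435, above the 99th percentile of 110 for tested later-intron regions. In 7 of the 8 the highest library was iMSBmal1KO replicate 3, and the highest library exceeded the lowest by 2.55 to 6.99 times. The Cdk8 region held 6064, 7415, 3196 and 3371 in vehicle and 7900, 8578, 13053 and 9792 in iMSBmal1KO. Every iMSBmal1KO library was above every vehicle library, with a log2 change of 1.04 ± 0.27 (SE, adjusted p in limma = 0.314). The regions of Jarid2, Gm36264 and Camk1d, on chromosomes 13, 13 and 2, shared the library profile of the Cdk8 region on chromosome 5. In each, vehicle replicates 3 and 4 were the lowest libraries and iMSBmal1KO replicates 3 and 4 the highest. The Cdk8 difference was thus not particular to its locus. Within 10 kb of each of the 8 regions, 0 or 1 other region was tested, except for 23 near Nctc1. None of the 8 passed the threshold, and a cause of the shared profile or of the peak in replicate 3 was not tested.

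The genes with the most later-intron regions were Msi2 with 287, Rbfox1 with 286, Prkce with 259, Trdn with 254 and Prkca with 247. Msi2 and Rbfox1 encode RNA-binding proteins, Prkce and Prkca protein kinase C isoforms, and Trdn triadin of the muscle calcium release complex. In Msi2 101 regions were tested, in Rbfox1 97, in Prkce 52, in Trdn 22 and in Prkca 75. None passed the adjusted threshold in limma, and an unadjusted p under 0.05 was found in 11, 10, 7, 0 and 3 of them. The shares over all tested regions were 0.0881% and 9.22%. Trdn had the lowest share tested of these 5, and its later introns summed to 1400 ± 110 in the vehicle libraries against 1559 ± 106 (SD, n = 4 each).

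The main comparison was iMSBmal1KO against vehicle, region by region. Of the 23167 tested later-intron regions 29 changed (0.125%), 7 higher and 22 lower in iMSBmal1KO, by limma on log2(signal + 1) with Benjamini-Hochberg adjustment over all 124901 tested regions. Over all tested regions 110 changed, which is 0.0881%. The higher share was 0.0302% in later introns against 0.0312% over all, and the lower share 0.095% against 0.0568%. First introns gave 11 of 13339, or 0.0825%. The difference between these shares was not tested. An unadjusted p under 0.05 was found in 2225 later-intron regions, 9.6% against 9.22% of all tested. Of these 1480 were higher (6.39% against 6.59%) and 745 lower (3.22% against 2.63%). The groups did not overlap in 1387 regions, 5.99% against 5.48%.

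By intron number the calls fell 10 in intron 2, 5 in intron 3, 2 in intron 4, 6 in intron 5, 3 in introns 6 to 10, 3 in introns 11 to 20 and 0 of 1074 in introns 21 and above. The shares called were 0.130% in intron 2, 0.128% in intron 3, 0.0870% in intron 4 and 0.360% in intron 5. They were 0.0713% in introns 6 to 10 and 0.128% in introns 11 to 20, against 0.0881% over all tested regions. In introns 21 and above 98 regions had an unadjusted p under 0.05 in limma, 9.12% against 9.22% of all tested. The median log2 change of the later-intron regions was 0.11, against 0.12 for all tested regions, so the shift of the whole table was shared. Median-of-ratios factors, trimmed-mean factors or a loess fit moved the latter to 0.01. Calls of direction below are on the deposited scale, and none of the 29 reversed under these scalings.

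Leaving out 1 library moved the count of 29. Among the vehicle libraries, 10 regions were called when replicate 1 was dropped, 12 when replicate 3 was dropped and 66 when replicate 4, the shallowest, was dropped. Among the iMSBmal1KO libraries, dropping replicate 2, 3 or 4 left 13, 11 or 19 calls. The p-values measure the spread between these 8 samples, which may in part be technical.

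All 29 regions, in 26 genes, had groups that did not overlap, and 28 were annotated to protein-coding genes. Their median length was 176 bp, and they lay 3.63 to 814 kb from their annotated starts, with a median of 42.7 kb. The promoter windows used held none on chromosome 18, so the Mapre2 region could not be compared with a start. None of the other 28 overlapped a RefSeq promoter window or lay within 1 kb of a RefSeq start. The nearest start was 2.09 kb away, for the Plekho2 region. A single region, that of Gm15759, overlapped another RefSeq gene, Aox2. Of the 29, 8 passed the threshold under each of 20 other settings, among them those of Syne1, Chmp5, Mcat, Gm15759, Mrps21, the Aff3 region at 38495388 and the Npas2 region of intron 7. Each of the other 21 was lost in 1 to 8 settings, 3 of them in 8, those of Nmnat2, Mylk4 and Auts2.

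**Figure D2:**
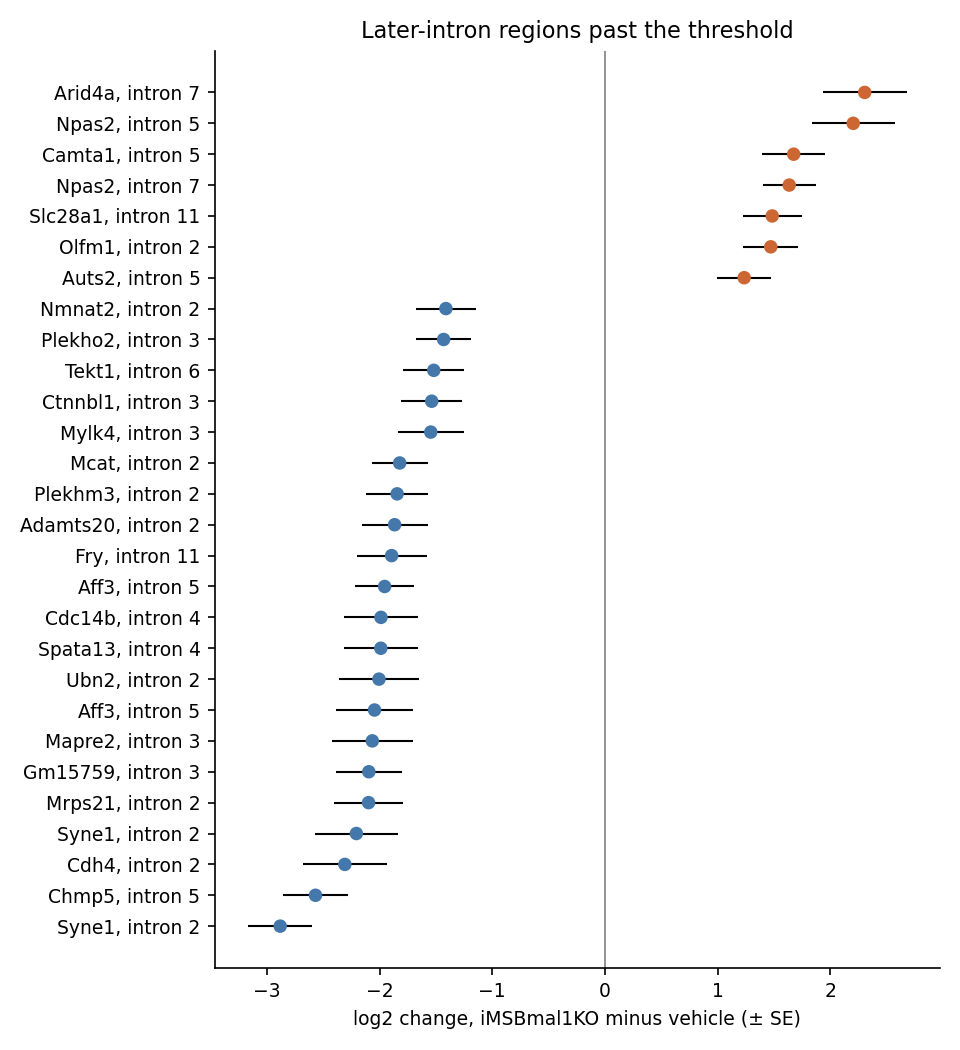
Log2 change of signal, iMSBmal1KO minus vehicle, with its SE, for 28 of the 29 later-intron regions past an adjusted p of 0.05 (limma, n = 4 libraries per group), each named by gene and intron number. Orange points are the 7 higher regions, from 1.23 in Auts2 to 2.30 in Arid4a, and blue points the lower ones, from -1.41 in Nmnat2 to -2.88 in Syne1.

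The largest decrease was in intron 2 of Syne1, which encodes nesprin-1, a protein of the nuclear envelope that anchors nuclei to the cytoskeleton in muscle fibres. The region (chromosome 10, 5190823 to 5190963) held 74.6, 88.4, 137 and 81.3 in vehicle and 11.1, 13.4, 14.3 and 8.78 in iMSBmal1KO. The highest iMSBmal1KO library was far under the lowest vehicle library. The log2 change was -2.88 ± 0.29 (SE, adjusted p in limma = 2.58e-04). The region that abuts it, 5190964 to 5191072, fell too, with a log2 change of -2.21 (adjusted p in limma = 0.0154), a call lost in 5 of 20 settings. Both lay 3.63 to 3.74 kb from their annotated start but about 122 kb from the nearest start that RefSeq lists, that is, the table annotates a start there which the RefSeq windows do not hold. The 22 other tested Syne1 regions, the abutting one included, had a median log2 change of -0.10, 7 of them positive and 15 negative. The 5 within 10 kb were all negative, with a median of -0.70.

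Chmp5 encodes a subunit of the ESCRT-III complex, which remodels membranes. Its region in intron 5 (chromosome 4, 40957593 to 40957945) held 123, 97.6, 102 and 68.8 in vehicle and 13.3, 12.5, 23.9 and 13.8 in iMSBmal1KO. It fell by 2.57 on the log2 scale (SE 0.29, adjusted p in limma = 2.98e-04) with no overlap. No other later-intron region of Chmp5 passed the filter. The 1 other tested region within 10 kb, of any section, had a log2 change of 0.03.

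Aff3, of a family of transcription elongation factors, held 2 regions that fell, both in intron 5. The first (chromosome 1, 38495388 to 38495558) held 189, 129, 152 and 90.7 in vehicle and 24.8, 35.1, 41.7 and 37.6 in iMSBmal1KO, a log2 change of -1.95 ± 0.26 (SE, adjusted p in limma = 0.00271). The second, 38491502 to 38491725, held 66.1, 70.9, 24.8 and 68.8 against 13.3, 14.2, 13.1 and 8.78. Vehicle replicate 3 was the lowest of its group there, still above every iMSBmal1KO library, and this second call was lost in 3 of 20 settings. Beside either of them, the 16 other tested Aff3 regions had a median log2 change of -0.43, 5 positive and 11 negative.

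Mcat and Mrps21 both encode mitochondrial proteins. The product of Mcat is the malonyl transferase of mitochondrial fatty acid synthesis, and its intron 2 region (chromosome 15, 83550328 to 83550511) held 127, 91.4, 133 and 109 in vehicle and 33.0, 24.3, 29.8 and 41.4 in iMSBmal1KO. It fell by 1.82 on the log2 scale (SE 0.25, adjusted p in limma = 0.00284). That of Mrps21 is a protein of the small mitochondrial ribosomal subunit, and its intron 2 region (chromosome 3, 95865195 to 95865365) held 50.1, 50.3, 71.8 and 62.5 against 20.1, 12.5, 8.35 and 12.5. That was a log2 change of -2.10 ± 0.30 (SE, adjusted p in limma = 0.00467). In both, the groups were well separated. The 4 other tested regions within 10 kb of the Mcat region were all positive, with a median of 0.19. The 6 near the Mrps21 region, of any section, were 4 positive and 2 negative, with a median of 0.32. The 1 other tested later-intron region of Mrps21 had a log2 change of -2.23 and was not called.

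The region of Gm15759, a predicted gene, lies in intron 3 (chromosome 1, 58281394 to 58281507) and held 114, 93.5, 90.1 and 62.5 in vehicle and 12.4, 25.1, 17.9 and 27.6 in iMSBmal1KO. Its log2 change was -2.09 ± 0.29 (SE, adjusted p in limma = 0.00363). All 6 other tested later-intron regions of Gm15759 were negative, with a median of -0.61. The authors' counting was not stated to use strand, and ATAC-seq does not assign an insertion to one of the overlapping genes Gm15759 and Aox2.

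Plekhm3, Adamts20 and Cdh4 followed. The intron 2 region of Plekhm3, of the pleckstrin homology family, held 106, 82.2, 80.1 and 48.4 in vehicle and 20.5, 18.4, 22.7 and 20.6 in iMSBmal1KO, a log2 change of -1.84 (adjusted p in limma = 0.0068). The intron 2 region of Adamts20, a secreted metalloprotease, held 52.2, 67.8, 63.5 and 43.8 against 10.3, 15.9, 20.3 and 13.8, a log2 change of -1.87 (adjusted p in limma = 0.00989). The intron 2 region of Cdh4, which encodes R-cadherin, held 51.2, 52.4, 57.8 and 62.5 against 10.3, 5.02, 8.35 and 26.3, a log2 change of -2.31 (adjusted p in limma = 0.0133). All iMSBmal1KO libraries lay under all vehicle libraries in the 3 regions, and replicate 4 stood highest of its group in Cdh4. The calls were lost in 1, 2 and 4 of 20 settings. In Adamts20 the other 9 tested regions went the other way, 8 positive and 1 negative.

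Further lower regions lay outside the naming rule and were named after their values were seen. They belonged to Fry, Spata13, Cdc14b, Plekho2, Mapre2, Ctnnbl1, Ubn2, Tekt1, Nmnat2 and Mylk4. Cdc14b encodes a phosphatase, Mapre2 a microtubule end-binding protein, Ctnnbl1 a spliceosome-associated protein, Ubn2 a subunit of a histone chaperone complex, Tekt1 a tektin of cilia, and Nmnat2 an enzyme of NAD synthesis. Their log2 changes ran from -2.06 in Mapre2 to -1.41 in Nmnat2, with limma adjusted p from 0.0145 to 0.0416, and each was lost in 2 to 8 of 20 settings. The Mapre2 region passed the filter on low signal through the vehicle libraries alone. With 4 to 19 reads per iMSBmal1KO library, the size of its change is imprecise. The Plekho2 region was the strongest of them, with 269, 271, 289 and 169 in vehicle against 62.5, 85.3, 99.005 and 124 in iMSBmal1KO.

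**Figure D3:**
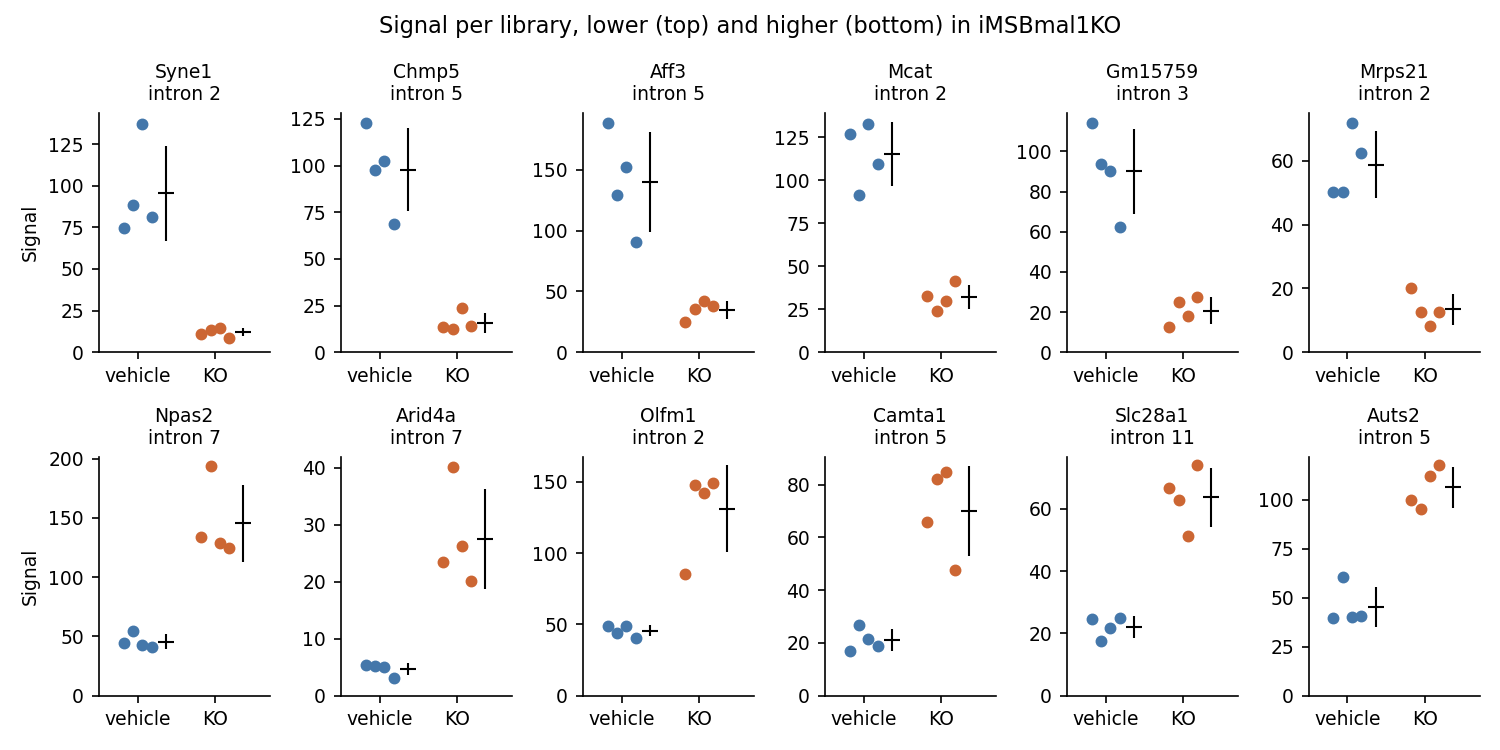
Deposited signal of each library (points, each panel on its own axis from 0) with mean and SD (bars, n = 4) for 6 of the lower regions, 1 per gene, and for 1 region of each of the 6 genes with a higher region. The groups do not overlap in any panel, and the scale runs from 3.13 in Arid4a to 194 in Npas2.

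Among the 7 higher regions, the smallest p fell in intron 7 of Npas2, which encodes a partner of BMAL1. This region (chromosome 1, 39318033 to 39318339) held 44.8, 54.5, 42.6 and 40.6 in vehicle and 134, 194, 129 and 124 in iMSBmal1KO. Every iMSBmal1KO library was at least 124 and no vehicle library above 54.5. The log2 change was 1.63 ± 0.23 (SE, adjusted p in limma = 0.00461). A second region, in intron 5 (39306124 to 39306400), held 13.9, 4.11, 6.99 and 6.25 against 27.0, 53.5, 28.6 and 42.7, a log2 change of 2.20 ± 0.37 (SE, adjusted p in limma = 0.0157). It rested on 2 to 13 reads per vehicle library and was lost in 4 of 20 settings.

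Arid4a encodes a chromatin protein that binds the retinoblastoma protein. Its region in intron 7 (chromosome 12, 71044605 to 71044736) rose from 5.33, 5.14, 5.08 and 3.13 to 23.5, 40.1, 26.2 and 20.1, a log2 change of 2.30 ± 0.37 (SE, adjusted p in limma = 0.0133). With 1 to 8 reads per vehicle library, the size of that change is imprecise. The region passed the filter on low signal through the iMSBmal1KO libraries alone. It was tested in 19 other settings, and the call was lost in 3 of them. Olfm1 encodes a secreted olfactomedin glycoprotein, and its intron 2 region (chromosome 2, 28210307 to 28210583) held 49.0, 44.2, 48.9 and 40.6 in vehicle and 85.6, 148, 142 and 149 in iMSBmal1KO. The log2 change was 1.47 ± 0.24 (SE, adjusted p in limma = 0.0145), with replicate 1 the lowest of its group. It was lost in 5 of 20 settings.

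Camta1 encodes a calmodulin-binding transcription activator. Its intron 5 region (chromosome 4, 151339616 to 151339773), 522 kb from the annotated start, held 17.1, 26.7, 21.6 and 18.8 in vehicle and 65.9, 82.0, 84.7 and 47.7 in iMSBmal1KO, a log2 change of 1.67 (adjusted p in limma = 0.0154). Slc28a1, a nucleoside transporter gene, had a region in intron 11 (chromosome 7, 81157553 to 81157707) with 24.5, 17.5, 21.6 and 25.01 against 66.8, 62.7, 51.3 and 74.0, a log2 change of 1.48 (adjusted p in limma = 0.0264). Auts2, a gene known from neural development, had a region in intron 5 (chromosome 5, 131727975 to 131728181) with 39.4, 60.6, 40.0 and 40.6 against 99.7, 95.3, 112 and 118, a log2 change of 1.23 (adjusted p in limma = 0.0468). No library of one group reached the other in these 3. The Auts2 call was lost in 8 of 20 settings, with total reads as the scaling and without any library but vehicle replicates 2 and 4 among them (adjusted p in limma up to 0.225). That of Slc28a1 was lost in 7 and that of Camta1 in 4. The other tested regions of Camta1 were 33 positive and 8 negative, those of Auts2 16 positive and 2 negative, and those of Slc28a1 9 positive and 3 negative.

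Npas2 and Mylk4 each held 13 tested later-intron regions, with 1 sign within the gene. Npas2 had 51 later-intron regions in the table and 13 tested, over introns 2 to 12. All 13 log2 changes were positive, from 0.34 to 2.20 with a median of 0.83, 7 had an unadjusted p under 0.05, 2 were called, and the groups were separate in 4. The region in intron 10, with 19.2, 23.6, 12.7 and 9.38 in vehicle against 50.1, 41.8, 34.6 and 46.4, came closest of the others (adjusted p in limma = 0.112). The region at 39282019 in intron 2 rested on 1 library, with 190 in iMSBmal1KO replicate 1 against 15.9 to 19.1 in the other 3.

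Mylk4, which encodes a kinase of the myosin light chain kinase family, had 13 tested regions over introns 2 to 10, all negative, from -2.29 to -0.69 with a median of -1.27. An unadjusted p under 0.05 was found in 12, the groups were separate in 9, and 1 was called. That region, in intron 3 (chromosome 13, 32723752 to 32723981), held 43.7, 59.6, 47.0 and 62.5 in vehicle and 12.4, 14.2, 22.7 and 22.6 in iMSBmal1KO, a log2 change of -1.55 ± 0.29 (SE, adjusted p in limma = 0.0416). This call was lost when any library but vehicle replicate 4 was left out, and it was lost in 8 of 20 settings in all, with adjusted p in limma up to 0.182. Regions of 1 gene share their surroundings and several abut, so they are not separate measurements. The filter on low signal asked for 4 libraries, the size of a group, so a region could pass through its higher group alone. A shared sign among the tested regions can come in part from that selection. Both genes were picked for this description after their values were seen. Over all tested regions 9.22% had an unadjusted p under 0.05 in limma, and the groups were separate in 5.48%.

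**Figure D4:**
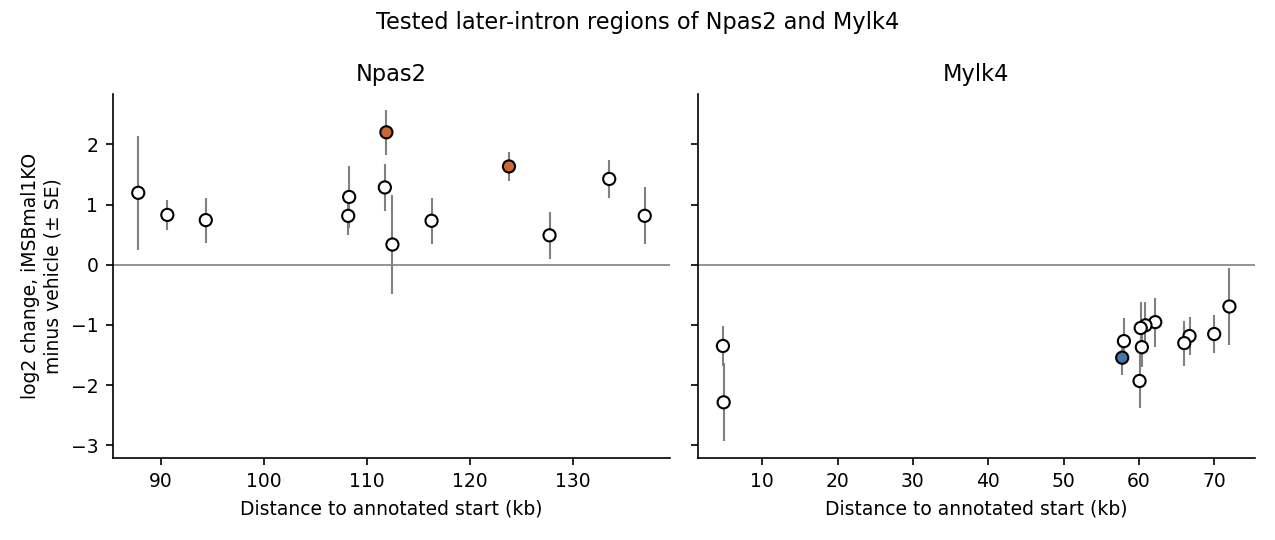
Log2 change of signal, iMSBmal1KO minus vehicle, with its SE (n = 4 libraries per group), against the distance in kb from the annotated start for the 13 tested later-intron regions of Npas2 and the 13 of Mylk4. Filled points passed an adjusted p of 0.05; all Npas2 points lie above 0, between 0.34 and 2.20, and all Mylk4 points below it, between -0.69 and -2.29.

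The targeted gene itself had 16 later-intron regions, listed under Arntl, of which 4 were tested. All 4 log2 changes were positive, from 0.24 to 1.00, and none passed the threshold (lowest adjusted p in limma = 0.53, 1 at an unadjusted p under 0.05). Added up, the 16 regions gave 120, 117, 118 and 128 in vehicle and 182, 166, 178 and 152 in iMSBmal1KO. The iMSBmal1KO sums were all above the vehicle sums, so no lower signal was seen in these introns. The files used here do not give the position of the floxed exon, and regions outside it cannot check the deletion.

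The share of the signal of chromosomes 1 to 19 that fell in later introns was lower in iMSBmal1KO, but not past a threshold of 0.05. It was 12.4%, 12.1%, 13.0% and 12.4% in vehicle and 12.2%, 11.6%, 11.3% and 11.9% in iMSBmal1KO. The mean went from 12.5% ± 0.358 to 11.7% ± 0.389 (SD, n = 4 each), a difference of -0.736 percentage points (exact two-sided permutation p = 0.0571, 0.19 adjusted over 10 summaries). Only iMSBmal1KO replicate 1 exceeded the lowest vehicle library. With all chromosomes in the denominator the difference shrank to -0.121 (exact permutation p = 0.829). By intron number all 7 classes had a lower mean in iMSBmal1KO. That of intron 5 went from 0.801% ± 0.0298 to 0.741% ± 0.0302 with no overlap (SD, n = 4 each), at the smallest p that 70 arrangements allow (exact permutation p = 0.0286, 0.16 adjusted over the 7 classes). The median log2 signal of later introns minus that of first introns was -0.02 in both groups (exact permutation p = 1). The same minus start-site regions was -0.59 in vehicle and -0.58 in iMSBmal1KO (exact permutation p = 0.514).

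Lists of muscle genes gave few calls in their later introns. The 9 lists were drawn up with earlier results of these data known, and the 0.0881% called over all tested regions is the background, or 9.22% at an unadjusted p under 0.05 (6.59% higher and 2.63% lower). Their median log2 changes stand beside 0.12 for all tested regions. Of the core clock list 36 regions in 9 genes were tested, 2 were called higher and 0 lower, both in Npas2, with a median log2 change of 0.42. An unadjusted p under 0.05 in limma was found in 9 higher and 3 lower (33.3%), 7 of them in Npas2. Npas2 holds 13 of the 36 and Arntl 4, all positive, while the other 19, in 7 genes, were 5 positive and 14 negative. Of the membrane and dystrophin complex list 127 were tested and 2 called, both the lower Syne1 regions, with a median of -0.01. At an unadjusted p under 0.05 in limma 10 were higher and 12 lower (17.3%). The difference of either share from all tested regions was not tested.

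The other 7 lists had no call in limma. The sarcomere and Z-disc list had 429 tested regions, 46.8% of its 916 listed ones, with a median log2 change of 0.19, or 0.06 relative to all tested regions. An unadjusted p under 0.05 was found in 29 of them higher and 5 lower, 7.93% in all, under the 9.22% of all tested regions. Neb, for nebulin of the thin filament, and Ttn, named outside the rule, had 77 and 54 tested regions with medians of 0.33 and 0.25. The Ldb3 region with the smallest p of this list, in intron 4, held 280, 247, 259 and 156 in vehicle and 421, 334, 434 and 373 in iMSBmal1KO, without overlap (adjusted p in limma = 0.291). Ldb3 encodes a Z-disc protein.

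The calcium release and excitation-contraction coupling list had 235 tested regions with a median of 0.10, 9 higher and 9 lower at an unadjusted p under 0.05 (7.66%). Its smallest p was in Jph2, for a junctophilin that holds the triad membranes together, with 20.3, 27.7, 28.6 and 37.5 against 18.8, 5.85, 15.5 and 10.0 (adjusted p in limma = 0.349). The glucose and insulin signalling list had 218 with a median of 0.05, 7 higher and 10 lower (7.8%). Its smallest p was in Rptor, for the mTORC1 subunit raptor, at a log2 change of 1.02 ± 0.22 (SE, adjusted p in limma = 0.105), which passed the threshold under 3 other scalings.

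The muscle transcription factor list had 306 tested regions with a median of 0.07, 11 higher and 6 lower at an unadjusted p under 0.05 (5.56%). Its smallest p was in intron 5 of Nfatc2, a calcineurin-regulated factor, with 70.4, 49.3, 57.2 and 34.4 in vehicle and 14.98, 26.8, 13.1 and 23.8 in iMSBmal1KO (adjusted p in limma = 0.116). The groups were separate, and it passed the threshold in 5 other settings. The oxidative and lipid regulator list had 74 with a median of 0.08, 3 higher and 4 lower (9.46%). Its smallest p was in Ppara, for a nuclear receptor of fatty acid use, with 141, 104, 98.5 and 81.3 against 155, 160, 162 and 153 (adjusted p in limma = 0.472). The neuromuscular junction and denervation list had 95 with a median of 0.03, 6 higher and 1 lower (7.37%). Its smallest p was in Hdac4, for a histone deacetylase, with 140, 92.5, 83.2 and 59.4 against 178, 181, 148 and 199 (adjusted p in limma = 0.214). The iMSBmal1KO libraries were all higher in both. The list of markers of cells other than fibres had 39 with a median of 0.26, 5 higher and 0 lower (12.8%), led by a Pax7 region with 61.8, 51.4, 51.5 and 43.8 against 67.6, 110, 105 and 113 (adjusted p in limma = 0.27). Pax7 marks satellite cells, the muscle stem cells.

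Summing the later-intron regions of each gene gave 5770 genes to test, of which 14 changed (0.243%), 4 higher (0.0693%) and 10 lower (0.173%), while 588 had an unadjusted p under 0.05 (10.2%). The higher ones included Npas2, Ifngas1 and Spata5. The Npas2 sum went from 403 ± 80.9 to 866 ± 157 (SD, n = 4 each), which was 1.11 ± 0.17 on the log2 scale (SE, adjusted p in limma = 0.00988). The lower ones with the smallest p were Chmp5, Mcat, Mylk4, Eef1akmt1 and Mrps21. The Mylk4 sum went from 515 ± 131 to 220 ± 32.2 (SD, n = 4 each), which was -1.20 ± 0.18 on the log2 scale (SE, adjusted p in limma = 0.00988). The Eef1akmt1 sum, with no single region called, went from 109 ± 33.9 to 35.96 ± 7.18. The others were Plekho2, Sorbs3, Tekt1, Cdc14b and Adamtsl5, named outside the rule. The sum of Chmp5 and that of Mcat stayed past the threshold in each of 10 other settings. These sums mostly repeat the 1 called region of each gene, the only one tested there. In vehicle it held a mean of 97.8 of the 120 summed over 5 regions of Chmp5. In Mcat it held 115 of the 128 summed over 2 regions. Dropping vehicle replicate 2, 3 or 4 gave 30, 3 or 24 genes, and dropping iMSBmal1KO replicate 2 or 3 gave 3 or 5.

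Setting each gene's later introns against its own start sites separated changes along a gene from changes of the whole gene. Of 4120 genes with enough signal at both, the ratio changed in 5 (0.121%), 1 higher (0.0243%) and 4 lower (0.0971%), and 417 had an unadjusted p under 0.05 (10.1%). In Mrps21 and Mcat the later-intron sums fell while the start-site means were higher in iMSBmal1KO, with start-site signals of 206 ± 63.9 and 281 ± 43.1 in Mrps21 and of 134 ± 6.73 and 147 ± 24.3 in Mcat (vehicle first, SD, n = 4 each). The ratio changes on the log2 scale were -2.03 (adjusted p in limma = 0.0139) and -1.75 (adjusted p in limma = 0.0178). Most of the Mcat sum came from its 1 called region, so its ratio is not separate from that call. Ruvbl2, for an ATPase of chromatin remodelling complexes, had -1.09 (adjusted p in limma = 0.029), from a single later-intron region.

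The other 2 genes differed at the start. Ces1d, a carboxylesterase gene, had later-intron sums of 37.2 ± 9.03 and 39.2 ± 9.56, while its start sites went from 197 ± 60.8 to 37.3 ± 9.63 (SD, n = 4 each). That gave a ratio change of 2.40 ± 0.36 (SE, adjusted p in limma = 0.0139). Mybph, for a myosin-binding protein, had later-intron sums of 1246 ± 254 and 1333 ± 332 and start-site signals of 58.4 ± 11.5 and 143 ± 59.5 (SD, n = 4 each), a ratio change of -1.10 (adjusted p in limma = 0.0317). In Npas2 both means were higher, the start sites going from 150 ± 26.3 to 571 ± 58.0 (SD, n = 4 each), and the ratio change of -0.82 did not pass (adjusted p in limma = 0.0943). In Mylk4 the ratio change was -0.73 (adjusted p in limma = 0.0849). Dropping vehicle replicate 1, 3 or 4 gave 1, 0 or 8 genes in place of 5, and dropping iMSBmal1KO replicate 1, 2 or 3 gave 3, 0 or 0.

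**Figure D5:**
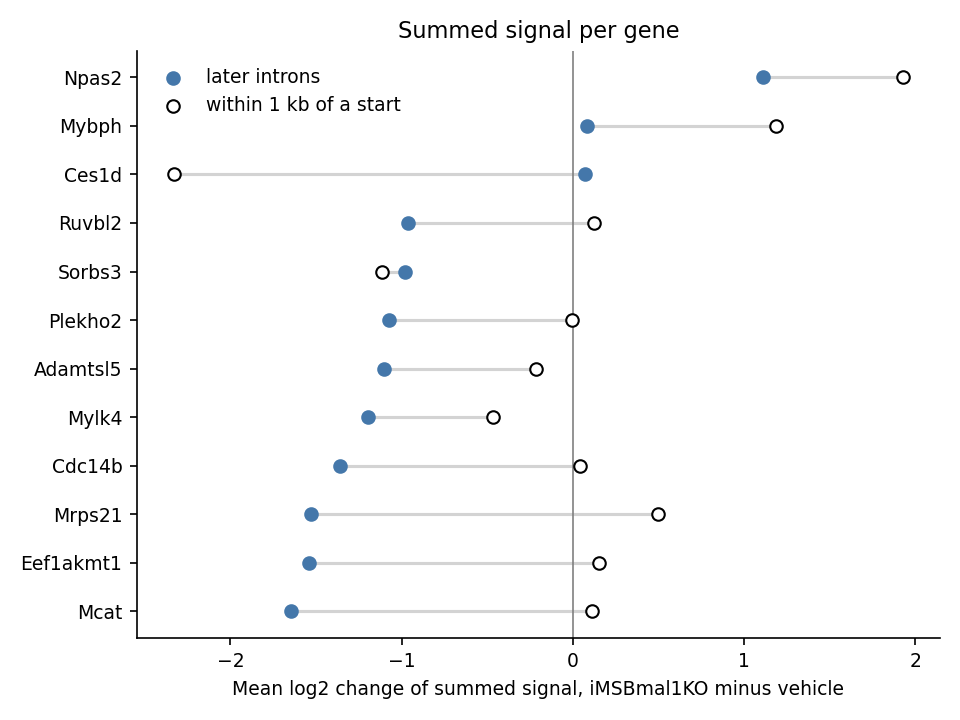
Mean log2 change of summed signal per gene, iMSBmal1KO minus vehicle (4 libraries each), in later introns (filled) and within 1 kb of a start (open), for 12 genes called in either test with a mean start-site signal of 20 or more in a group. In Mrps21 and Mcat the later introns are at -1.53 and -1.64 while the start sites are at 0.50 and 0.11; in Ces1d the start sites are at -2.33 and the later introns at 0.07.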

How the data were processed

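The authors deposited 1 table with a column of signal per library for 489637 regions and a gene section for each; all 8 columns matched a sample by name. The submitters' processing notes name Partek, Bowtie2, MACS2 and DESeq2 and the builds mm10 and GRCm39, with no roles. How duplicates and the transposase offset were treated is not given in the sources used here. The signal was not whole, but 98.3% to 99.8% of the non-zero values per library were whole multiples of 1 step within 0.02 reads, so it was read as reads divided by a factor per library. Since recovery was incomplete, no count model was used. Without molecular identifiers, reads need not be independent molecules.

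Coordinates are counted from 1. Of the genes matched by symbol in RefSeq GRCm38.p6, 99.9% had a transcript overlapping the RefSeq gene, so positions were read as mm10; 94.4% of the genes with later-intron regions matched. No genome was used, so sequences come only from RefSeq promoter windows.

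The test was limma-trend with robust moderation (limma 3.58.1, R 4.3.3) on log2(signal + 1), with group as the only term, over all 124901 regions that passed the filter, adjusted by Benjamini-Hochberg at 0.05. Fold changes on this scale understate those of low regions. Since the filter asked for 4 libraries, the size of a group, a region could pass through its higher group alone. Gene sums needed a mean signal of 20, and start sites were regions within 1000 bp of a start. Shares and medians per library were compared by exact permutation over 70 arrangements. Tables and figures used Python 3.11.15, pandas 2.3.3 and matplotlib 3.10.9. The fit was checked on simulated data. Of 100 simulated later-intron regions with a 2-fold change 12 were called, and of 100 with a 4-fold change 71. A region that was not called may therefore still have changed. Of 124701 simulated regions without a change 3 were called. The simulated gene sums covered 4093 genes, from tested regions alone, and so do not match the 5770 tested here.

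The members, lists and tests were chosen with earlier results of these data known. The text names, at most 1 per gene, the 10 called regions leading by p in each direction and the 8 strongest, the smallest p of each list, the 5 leading genes of each gene test per direction, the 5 genes with most regions, and Arntl; others are said to lie outside the rule. Alternatives changed the pseudocount, filter, scaling, tool, threshold, chromosomes and merging of abutting regions, added the replicate number, or left out each library. Those without the strongest region and with means for medians were chosen after seeing the data. Some regions and genes that the totals count are not reported here by themselves.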

Additional observations from a re-analysis of the deposited data

Results flagged for a closer look

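In 8 of 116 groups of 4 libraries examined, 1 library stood apart from the other 3 by more than 0.829 of the group's range, and chance gives about 1 in 20, or 5.8. At the Chmp5 region iMSBmal1KO replicate 3 held 23.9 against 12.5 to 13.8. At the Npas2 region of intron 7 iMSBmal1KO replicate 2 held 194 against 124 to 134. At the Olfm1 region iMSBmal1KO replicate 1 held 85.6 against 142 to 149. At the Arid4a region vehicle replicate 4 held 3.13, which is 1 read, against 5.08 to 5.33. At the Aff3 region that starts at 38491502 vehicle replicate 3 held 24.8 against 66.1 to 70.9. At the Plekho2 region vehicle replicate 4 held 169 against 269 to 289. At the Auts2 region vehicle replicate 2 held 60.6 against 39.4 to 40.6. The median log2 signal of later introns minus first introns was -0.098 in vehicle replicate 3 and 0 in the other 3 vehicle libraries, where the medians tied.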

How the results depend on the processing

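The count of 29 changed later-intron regions was 48 with no filter, 66 with median-of-ratios factors and 66 with trimmed-mean factors, 80 with loess, 81 with limma-voom and 10 at an adjusted p of 0.01. It ran from 10 to 66 when each library was left out. With each library left out, counts of changed genes ran from 3 to 30 for sums and from 0 to 8 for ratios. The difference in the share in later introns was -0.657 percentage points over tested regions alone (exact permutation p = 0.0286) and -0.881 to -0.568 with 1 library left out. For intron 2 the range was -0.304 to -0.174, for intron 5 -0.0705 to -0.0452, for introns 6 to 10 -0.177 to -0.0856 and for introns 11 to 20 -0.0832 to -0.0287. The small difference in medians changed sign: with 1 library left out, later minus first introns ran from -0.0165 to 0.0160 and later minus start-site regions from -0.00723 to 0.0305. With means they were 0.0207 and -0.0341, and the former was 0.0527 at a mean signal of at least 20. At Chl1, which stayed uncalled, the log2 change was -0.11 with median-of-ratios or trimmed-mean factors, -0.0485 with total reads, -0.0711 with voom, and -0.25 to 0.20 with 1 library left out. The cause was not tested. Depth limits low regions most in vehicle replicate 4.

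Same-numbered libraries showed little shared deviation, with correlations from -0.057 to 0.102, 1 of 4 above 0.1. These 4 values cannot decide whether the numbers pair the samples, and the main test did not use them as pairs. With the replicate number as a block 31 regions changed, 25 of them among the 29, as did 25 gene sums and 12 ratios.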

Other observations

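The 20 strongest later-intron regions after the 8 named ones, 1 per gene and listed after their values were seen, lay in as many genes, some of which are described here. Tpm2 encodes a tropomyosin, Mylk2 the skeletal myosin light chain kinase, Pgm1 phosphoglucomutase, Adssl1 the muscle adenylosuccinate synthase, and Tead4 a transcription factor of muscle genes. The Tpm2 region had a mean signal of 1687 in vehicle and 1751 in iMSBmal1KO, that of Mylk2 1328 and 1346 and that of Tead4 1482 and 1470. These 20 had a median length of 764 bp, from 269 to 1215 bp. The highest library exceeded the lowest by a median of 1.93 times, against 2.55 to 6.99 times in the 8 strongest. The range over the 20 was 1.46 to 5.26 times, so not all were steady. The highest ratio was in Gphn, a region of 385 bp with means of 1183 in vehicle and 2363 in iMSBmal1KO. There vehicle replicates 3 and 4 were the lowest libraries and iMSBmal1KO replicates 3 and 4 the highest, as in Cdk8. None was called, with 0.451 as the lowest limma adjusted p.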
